A study of Mus musculus with 12 samples.

Results

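The 7 genes described here mark the peripheral nerve in brown fat. They were taken by symbol from a table of 61210 genes, and each symbol matched 1 row. S100b, Sox10, Mbp, Pmp22 and Ngfr are genes of Schwann cells, and Th and Npy are genes of sympathetic neurons. Of the 7 genes, 6 had a count in at least 1 library and 5 passed the filter on low counts (S100b, Sox10, Mbp, Pmp22 and Ngfr).

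Brown fat is densely innervated by sympathetic axons, which release noradrenaline onto the adipocytes in the cold. Schwann cells wrap these axons within the tissue, either in bundles without myelin or, for larger fibres, in a myelin sheath, and their RNA is therefore sampled with the fat pad. The cell bodies of the sympathetic neurons lie outside the pad in the sympathetic chain ganglia, so that most of the RNA for transmitter enzymes is made elsewhere.

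Total RNA of iBAT from wild type C57BL/6N mice aged 20 weeks was sequenced after depletion of ribosomal RNA. All mice ate chow until the age of 8 weeks and then either stayed on the control diet (NCD) or received a high-fat diet (HFD) for 12 weeks, and they were housed at room temperature (RT, 22 °C) or kept at 4 °C for 24 h (cold). The 4 groups, NCD RT, NCD cold, HFD RT and HFD cold, held 3 libraries each, with replicates 1 and 2 in batch 1 and replicate 3 in batch 2 by the sample labels. The labels number the samples and do not tie each to an animal, so that the p-values measure the spread between these samples. One label text spells iBAT out as inguinal and the study's methods as interscapular brown adipose tissue.

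The libraries held 15136861 to 46740702 counts, and replicates of a group correlated with Spearman's rho of 0.964 to 0.986. Levels are given as CPM, the counts of a gene scaled to the library size after TMM scaling. Ucp1, the uncoupling protein that defines brown adipocytes, was present in all 12 libraries at 3789 to 18809.5 CPM, and all 9 brown adipocyte markers examined passed the filter. Skeletal muscle RNA varied widely between libraries, with Acta1, the actin of skeletal muscle, at 96.0 to 3571 CPM. The library highest in the mean of 12 muscle markers was replicate 2 in both NCD groups and replicate 3 in both HFD groups. In bulk tissue, fewer cells of a type and less RNA per cell cannot be told apart.

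The promoters of the 2 genes whose levels changed, S100b and Ngfr, and of Th, which lies close to the detection limit, are shown as the 250 bases before the annotated start (RefSeq, GRCm38.p6). Each was searched on both strands for a TATA box (TATAAA), a GC box (GGGCGG), a SOX core (ACAAAG), a CRE core (TGACG) and an E box (CACGTG), and matches are in capitals.
S100b, chr10:76253586-76253835, plus strand: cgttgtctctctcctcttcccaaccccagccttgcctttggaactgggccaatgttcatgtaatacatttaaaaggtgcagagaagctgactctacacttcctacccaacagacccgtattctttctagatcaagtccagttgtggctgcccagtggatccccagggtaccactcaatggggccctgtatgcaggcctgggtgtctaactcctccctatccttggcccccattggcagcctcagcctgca
Ngfr, chr11:95587699-95587948, minus strand: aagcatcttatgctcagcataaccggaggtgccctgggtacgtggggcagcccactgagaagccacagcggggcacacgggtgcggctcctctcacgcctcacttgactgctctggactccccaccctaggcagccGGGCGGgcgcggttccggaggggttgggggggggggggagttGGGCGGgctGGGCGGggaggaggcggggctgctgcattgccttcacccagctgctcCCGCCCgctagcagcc
Th, chr7:142899996-142900245, minus strand: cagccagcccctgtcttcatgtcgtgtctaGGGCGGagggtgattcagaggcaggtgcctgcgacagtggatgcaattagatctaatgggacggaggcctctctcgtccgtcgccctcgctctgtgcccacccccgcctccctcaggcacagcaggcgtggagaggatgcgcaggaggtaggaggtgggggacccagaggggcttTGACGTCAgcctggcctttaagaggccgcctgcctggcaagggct

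The S100b window held none of the 5 motifs, and its GC content was 53.6%. The Ngfr window, with a GC content of 70.4%, held 4 GC boxes, which start at −114, −72, −63 and −16 from the annotated start. In the Th window lay 1 GC box and 2 overlapping CRE cores on opposite strands, which together read TGACGTCA, the full palindrome bound by factors of the CREB family, at −45. Among 32851 promoter windows of the same length, 32.7% held a GC box and 17.8% a CRE core. A TATA box was in 12.4%, a SOX core in 16.5% and an E box in 6.02%. The windows of Npy and of the 4 annotated starts of Pmp22 also lacked a SOX core. A match or its absence in these windows says nothing about binding.

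The genes spanned a wide range of levels, compared here as CPM per kb of exon and averaged over the 12 libraries. S100b, a calcium-binding protein of Schwann cells that adipocytes also make, was highest at 92.7 CPM per kb, above 97.1% of the 14390 tested genes with a length. Pmp22, a membrane protein of compact peripheral myelin that fibroblasts also express, followed at 18.1 CPM per kb and Mbp, which compacts the myelin membranes, at 6.21 CPM per kb. Sox10, the transcription factor that Schwann cells need throughout life, reached 0.375 CPM per kb. Ngfr, the low-affinity neurotrophin receptor carried by non-myelinating and repair Schwann cells and by sympathetic neurons, was at 0.327 CPM per kb. These last levels lay above only 13.6% and 12.0% of tested genes, and the libraries of Sox10 (0.216 to 0.572 CPM per kb) and Ngfr (0.102 to 0.758 CPM per kb) overlapped. Th was at 0.0493 CPM per kb and Npy at 0. With the median transcript length in place of the union of exons the levels were higher for Pmp22 (58.2) and Mbp (29.2), and the order was the same.

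**Figure D1:**
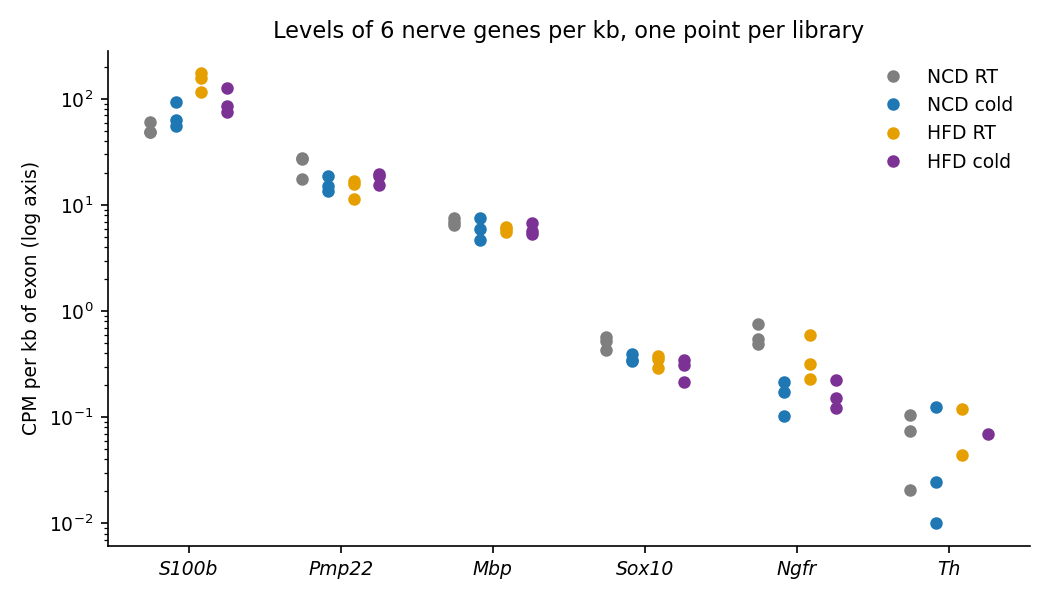
Level of 6 nerve genes per kb of exon (log axis, CPM per kb), 1 point per library, coloured by group. S100b lies highest with a mean of 92.7, Sox10 and Ngfr lie below 1, and the 3 libraries without a Th count and all libraries of Npy, which was 0 throughout, cannot be drawn on a log axis.

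Sox10 (chr15:79154908-79165240, minus strand, GRCm38), the regulator of Schwann cell identity, was low but present in every library, with 15 to 65 counts. It measured 1.31, 1.74 and 1.59 CPM in NCD RT and 1.20, 1.06 and 1.04 CPM in NCD cold. On HFD it measured 1.16, 0.889 and 1.07 CPM at RT and 0.945, 0.660 and 1.05 CPM in the cold. All 3 NCD RT libraries lay above every other library, although no contrast passed the test. Its log2 fold change was −0.49 (SE 0.26, edgeR adjusted p = 0.309) for cold on NCD and −0.57 (SE 0.26, edgeR adjusted p = 0.279) for HFD at RT. Averaged over temperatures, HFD gave −0.44 with a 95% interval of −0.85 to −0.03 and an adjusted p of 0.144. An exact two-sided permutation test within temperature gave p = 0.01 for HFD and, within diet, p = 0.025 for cold. Adjusted over the 12 permutation tests of the 6 detected genes these were 0.06 and 0.075, where the smallest p possible is 0.005.

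Mbp lies on chr18:82475146-82585637 with 16 annotated transcripts, and its counts of 811 to 2413 per library make it one of the better measured of the 7 genes. NCD RT held 63.5, 54.6 and 59.1 CPM and NCD cold 63.6, 50.0 and 39.3 CPM, so that the cold libraries spread widely around the RT values. The HFD RT libraries held 52.2, 47.5 and 50.9 CPM and the HFD cold libraries 48.2, 57.9 and 44.8 CPM. No contrast passed the test for Mbp. Its log2 fold changes were −0.21 for cold on NCD (95% interval −0.56 to 0.14) and 0.00 for cold on HFD (−0.35 to 0.35). For HFD at RT the value was −0.23 (−0.58 to 0.12), although the libraries of the groups did not overlap.

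Pmp22 (chr11:63128982-63159547, plus strand), the peripheral myelin membrane protein, was highest in NCD RT at 65.4, 63.4 and 41.2 CPM. It measured 35.7, 43.9 and 32.1 CPM in NCD cold, 39.6, 37.3 and 26.7 CPM in HFD RT and 44.6, 46.0 and 36.5 CPM in HFD cold. In each of the 4 groups replicate 3, which forms batch 2, was the lowest. The log2 fold change for cold on NCD was −0.60 (SE 0.20, edgeR adjusted p = 0.0997), with overlapping libraries. With replicate numbers as a block within diet it was −0.58 and passed (edgeR adjusted p = 0.0197). That pairing was read from these same libraries, so that a pass with the block alone is not separate evidence. HFD at RT gave −0.71 (SE 0.20, edgeR adjusted p = 0.0991) with no overlap between the groups, and with batch as a term −0.71 (adjusted p = 0.0105). Cold on HFD gave 0.30 (95% interval −0.15 to 0.74). The interaction of diet and temperature, which compares these cold effects, was 0.90 (95% interval 0.27 to 1.53) and did not pass in edgeR (adjusted p = 0.616).

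S100b (chr10:76253853-76261159, plus strand) rose with HFD at RT. Its 1 annotated transcript lies within the span of Dip2a on the opposite strand, and the exons do not overlap. NCD RT held 90.1, 72.7 and 73.0 CPM and NCD cold 94.2, 82.9 and 139 CPM. HFD RT held 234, 259.9 and 174 CPM, all above every library of both NCD groups, and HFD cold 113, 190.4 and 128 CPM. The group means were 78.6 ± 9.97 CPM in NCD RT, 105 ± 29.8 in NCD cold, 223 ± 44.1 in HFD RT and 144 ± 41.1 in HFD cold (SD, n = 3 each). The rise with HFD at RT was 2.84-fold, a log2 fold change of 1.50 (SE 0.24, 95% interval 0.97 to 2.04, edgeR adjusted p = 0.0104).

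In the cold the HFD difference in S100b was 0.45 on the log2 scale (95% interval −0.08 to 0.97, edgeR adjusted p = 0.297), and the NCD cold and HFD cold libraries overlapped. Averaged over temperatures S100b rose by 0.97 (SE 0.17, edgeR adjusted p = 0.00464). Cold itself gave 0.43 on NCD (SE 0.24, adjusted p = 0.339) and −0.63 on HFD (SE 0.24, adjusted p = 0.111). With replicate numbers as a block within diet, a pairing read from these same libraries, cold on HFD gave −0.65 (edgeR adjusted p = 0.0464). The interaction was −1.06 (95% interval −1.80 to −0.32) and did not pass in edgeR (adjusted p = 0.616). The HFD RT call was lost without NCD RT 2, NCD RT 3 or HFD RT 2, where the log2 fold change was 1.38 to 1.45 with adjusted p = 0.0506 to 0.0532. Within batch 1 it was 1.60 (adjusted p = 0.0668), and in batch 2, with 1 library per group, the levels were 73.0 CPM in NCD RT and 174 CPM in HFD RT.

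Ngfr (chr11:95568818-95587735, minus strand) fell in the cold. Its counts were low, at 6 to 77 per library. NCD RT held 2.61, 1.69 and 1.89 CPM against 0.745, 0.353 and 0.592 CPM in NCD cold, and HFD RT held 2.06, 1.10 and 0.791 CPM against 0.765, 0.528 and 0.420 CPM in HFD cold. All 6 cold libraries lay below all 6 RT libraries. The HFD RT and HFD cold groups came closest, with 0.791 CPM the lowest of the RT libraries and 0.765 CPM the highest of the cold ones.

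On NCD the fall in Ngfr was 3.61-fold, a log2 fold change of −1.85 (SE 0.42, 95% interval −2.78 to −0.92, edgeR adjusted p = 0.0239). On HFD it was −1.19 (SE 0.42, edgeR adjusted p = 0.0927). With replicate numbers as a block within diet, a pairing read from these same libraries, it was −1.13 (edgeR adjusted p = 0.0481). Averaged over diets it was −1.52 (SE 0.30, edgeR adjusted p = 0.0045), and the exact permutation test within diet gave the smallest p it can, 0.005 (0.06 after adjustment). The cold effects on the 2 diets differed by 0.66 (95% interval −0.65 to 1.97, adjusted p = 0.879). The NCD call was lost without any one of NCD RT 1, NCD RT 2, NCD RT 3, NCD cold 2 or NCD cold 3, with adjusted p = 0.0507 to 0.0902 and log2 fold changes of −1.97 to −1.63. Within batch 1 it was −1.95 (adjusted p = 0.101), and in batch 2 the single libraries held 1.89 CPM at RT and 0.592 CPM in the cold. The averaged fall passed in all 12 fits that each left out 1 library. HFD gave Ngfr −0.67 at RT (95% interval −1.55 to 0.21) and −0.01 in the cold (−0.95 to 0.93).

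**Figure D2:**
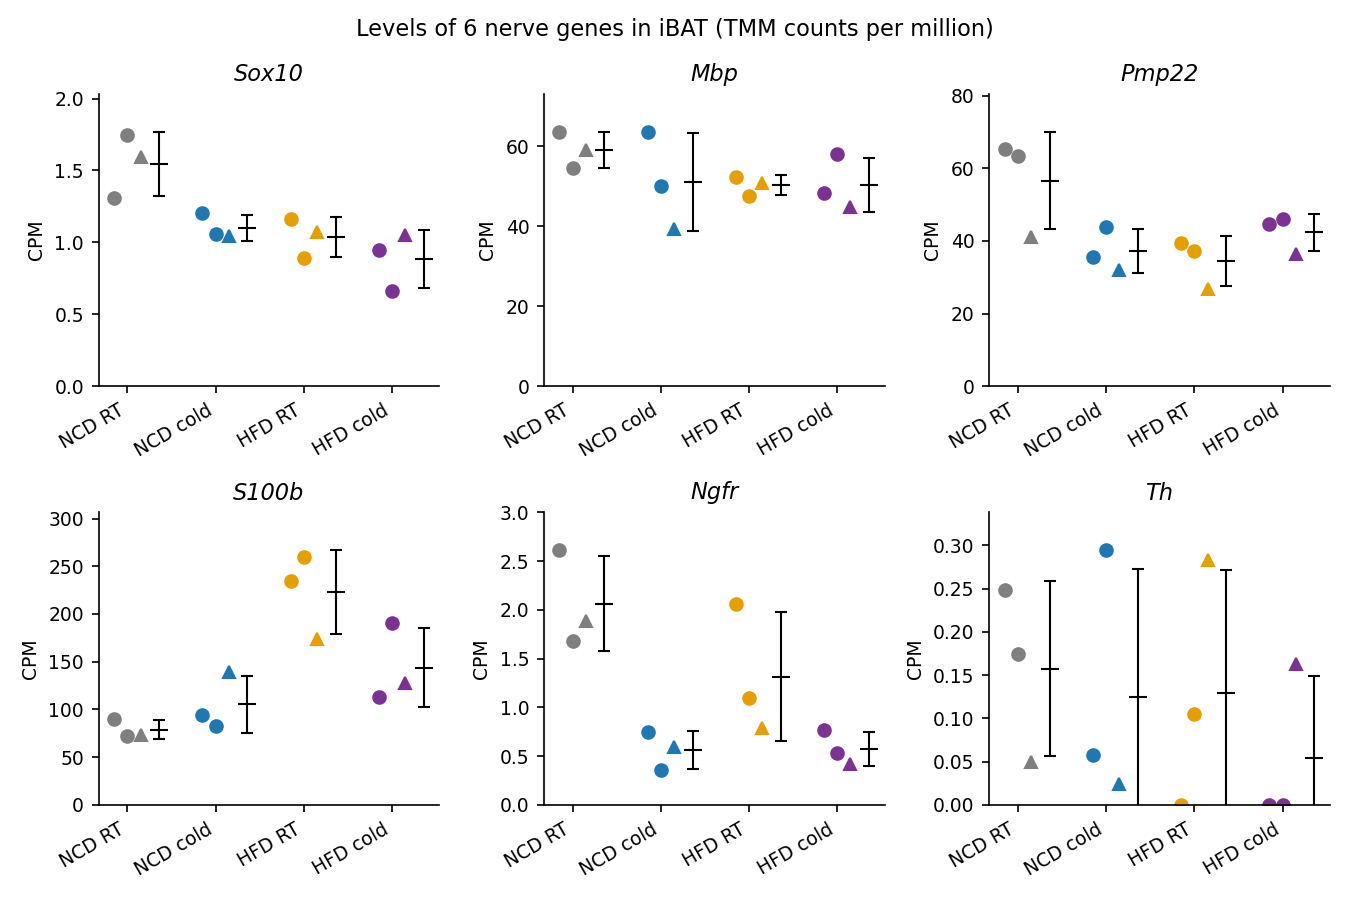
CPM of 6 nerve genes in the 12 libraries by group, with circles for batch 1, triangles for batch 2, and the mean and SD of 3 libraries as black bars at the right of each group. S100b is highest in HFD RT (mean 223 CPM), the 6 cold libraries of Ngfr lie below the 6 RT libraries, and Th stays below 0.3 CPM.

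The sympathetic genes were at or near the detection limit. Th (chr7:142892752-142931128, minus strand), the rate-limiting enzyme of catecholamine synthesis, had 35 counts in all 12 libraries together. The counts were 4, 3 and 2 in NCD RT, 1, 5 and 1 in NCD cold, 0, 2 and 10 in HFD RT and 0, 0 and 7 in HFD cold. On HFD most of the counts came from replicate 3, of the more deeply sequenced batch. Scaled to depth, Th was still highest there, at 0, 0.105 and 0.282 CPM in HFD RT and 0, 0 and 0.163 CPM in HFD cold. On NCD replicate 3 was the lowest of each group, at 0.0490 CPM at RT and 0.0237 CPM in the cold. HFD replicate 3 was also the library highest in muscle in both HFD groups. The parts of depth, batch and muscle in the Th counts were not tested. Summed over a group, Th was at 0.121 CPM in NCD RT (exact Poisson 95% interval 0.0555 to 0.230), 0.0912 CPM in NCD cold (0.0367 to 0.188), 0.171 CPM in HFD RT (0.0883 to 0.299) and 0.0796 CPM in HFD cold (0.0320 to 0.164). These intervals cover counting error only and overlap in all groups. The exact permutation tests gave p = 0.405 for cold and p = 0.38 for HFD, and a difference between groups was not detectable at this depth.

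Npy (chr6:49822710-49829507, plus strand), the peptide that sympathetic neurons release together with noradrenaline, had 0 counts in all 12 libraries. A count of 0 allows up to 3 counts, which is 0.0698 to 0.193 CPM per library and 0.0097 CPM over all libraries together. Of its receptors, Npy2r and Npy5r also had 0 counts in every library. Npy4r had 72 counts over all 12 libraries, and Npy1r had 538 counts, at a mean of 1.70 CPM, was tested and was not called in any contrast.

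Of the 5 tested genes, 1 was called in the cold on NCD (Ngfr, lower), where 6.27% of all 16737 tested genes were called and 2.55% were called lower. A call needed an edgeR adjusted p under 0.05 together with a log2 fold change above 0.5 in size. The libraries of the groups did not overlap for 2 of the 5 (Sox10 and Ngfr, both lower), beside 27.8% of all genes. Their median log2 fold change was −0.49, against −0.01 over all tested genes. In the cold on HFD 0 of the 5 were called by edgeR and 0 by DESeq2, beside 9.58% of all genes in edgeR. An unadjusted p under 0.05 was reached by 2 of the 5 (S100b and Ngfr), beside 4595 of all 16737 tested genes. Here only Ngfr did not overlap between the groups, beside 30.3% of all genes.

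HFD at RT called 1 of the 5 (S100b, higher), where 2.09% of all genes were called and 0.992% were called higher. Sox10, Mbp, Pmp22 and S100b did not overlap between the groups, 4 of the 5 tested genes beside 25.9% of all genes, and S100b was the only one of them that was higher. HFD in the cold called 0 of the 5 by edgeR and 0 by DESeq2, beside 4.75% of all genes in edgeR. None of the 5 had an unadjusted p under 0.05, beside 3802 of all 16737 tested genes. None was free of overlap, beside 25.2%. Of the averaged contrasts, cold called Ngfr (12.7% of all genes called, 6.6% lower) and HFD called S100b (7.8% called, 4.24% higher). The 6 cold and 6 RT libraries did not overlap for Ngfr alone, beside 8.13% of all genes, and for HFD no member was free of overlap, beside 4.31%.

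The test over all 4 groups at an adjusted p under 0.001 passed for 0 of the 5, beside 2.55% of all genes. At an unadjusted p under 0.05 it held 3 of the 5, beside 6513 of all 16737 tested genes. Its edgeR adjusted p was 0.00491 for S100b and 0.0138 for Ngfr, and DESeq2 passed both. The interaction passed for 0 of 16737 genes, with 1091 at an unadjusted p under 0.05, 2 of them among the 5 (S100b and Pmp22), and 61 called by DESeq2, 0 of them among the 5. Contrasts that share a group are not independent, since NCD RT enters both cold on NCD and HFD at RT. Scaling by library totals alone raised the median log2 fold change of all genes from 0.03 to 0.22 for HFD at RT and from 0.02 to 0.32 for HFD in the cold. The share of higher genes among those called then went from 47.6% to 83.2% and from 43.4% to 90.4%, and for cold on HFD from 56.3% to 71.0%. S100b under that scaling was at 1.69 for HFD at RT and at 0.74 (adjusted p = 0.0424) for HFD in the cold.

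**Figure D3:**
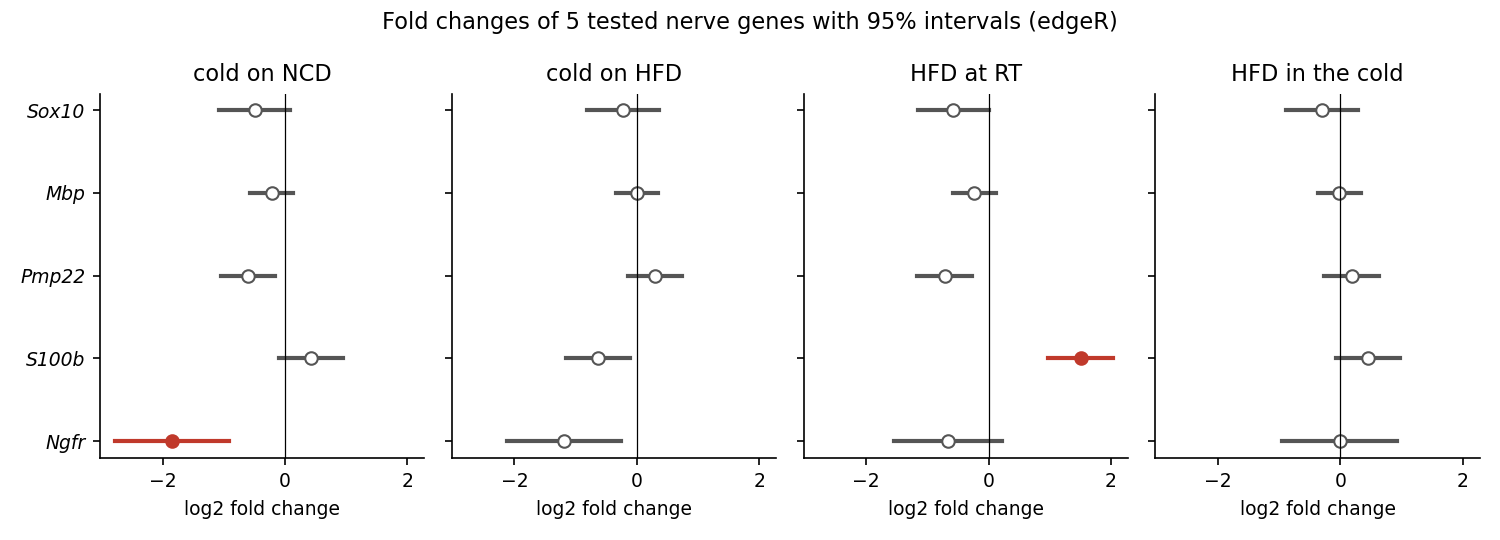
Log2 fold change of the 5 tested genes in the 4 single contrasts with 95% intervals (edgeR, 12 libraries). Filled red points passed the call rule, which are Ngfr for cold on NCD (−1.85) and S100b for HFD at RT (1.50), and all other points are open.

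Markers of other cell types also differed between the groups. The summed level of 8 fibroblast markers was 1149 to 1755 CPM in NCD RT, 534 to 633 in NCD cold, 582 to 839 in HFD RT and 393 to 776 in HFD cold, and none of the 8 was at 0. In the cold on NCD 4 of the 8 fell (Lum, Col1a1, Col3a1 and Fn1), where 2.55% of all genes were called lower. In the averaged HFD contrast Lum and Col1a1 fell, where 595 of all 16737 tested genes were called lower. Of the 6 endothelial markers Pecam1 rose in the cold on NCD and with HFD at RT, and their sum was 512 to 627 CPM in NCD RT, 725 to 808 in NCD cold, 702 to 958 in HFD RT and 944 to 1066 in HFD cold. The part of these cells in the Ngfr, Pmp22 and S100b values was not tested. The summed level of the 12 muscle markers was 2778 to 17097.6 CPM in NCD RT and 1198 to 9851 in NCD cold. It was 1925 to 18234.9 CPM in HFD RT and 671 to 5853 in HFD cold. In a fit with the muscle score as a term, its slope passed for 0 of the 5 nerve genes. Of all 16737 tested genes, 591 (3.53%) passed with a positive slope and 16 with a negative one. The slope was −0.25 for Ngfr (edgeR unadjusted p = 0.0135, adjusted p = 0.229) and −0.11 for S100b (edgeR unadjusted p = 0.0544, adjusted p = 0.459). It was −0.02 for Pmp22, −0.03 for Mbp and 0.05 for Sox10. Ngfr fell by 1.84 in the averaged cold contrast of that fit (adjusted p = 0.000692), and S100b rose by 1.45 for HFD at RT (adjusted p = 0.00424). With the library highest in muscle left out of each group the values were −1.75 for Ngfr in the cold on NCD (adjusted p = 0.0856) and 1.60 for S100b with HFD at RT (adjusted p = 0.0533).

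Among further Schwann cell genes, the markers of non-myelinating and repair cells were examined first. Of 14 genes in this list 7 were tested. Several markers of the list were nearly absent. Shh had 0 counts over all 12 libraries, Gfap 8, Gap43 19, Artn 22, Gdnf 34 and Sox8 59. Of the 7 tested genes 2 fell in the cold on each diet, where 2.55% of all genes were called lower on NCD and 4.19% on HFD. Matn2, a matrilin of the extracellular matrix, measured 37.8, 35.1 and 38.5 CPM in NCD RT and 14.4, 9.77 and 16.2 CPM in NCD cold. On HFD it measured 19.1, 17.0 and 18.8 CPM at RT and 4.95, 7.26 and 7.32 CPM in the cold. The fall in the cold was −1.46 on NCD (SE 0.19, adjusted p = 0.00158) and −1.49 on HFD (SE 0.19, adjusted p = 0.00118). Matn2 was also lower with HFD at RT (−1.02, SE 0.19, adjusted p = 0.0194) and in the cold (−1.05, SE 0.19, adjusted p = 0.0127), and no groups of these contrasts overlapped. The RT call was lost without any one of NCD RT 1, 2 or 3 or HFD RT 2 or 3, and the cold call without NCD cold 1, NCD cold 3 or HFD cold 1. The part of fibroblasts in the Matn2 values was not tested.

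Scn7a, a sodium channel of non-myelinating Schwann cells, measured 55.1, 53.4 and 52.7 CPM in NCD RT and 31.6, 26.8 and 24.9 CPM in NCD cold. HFD RT held 44.4, 38.9 and 43.9 CPM and HFD cold 28.8, 23.6 and 23.5 CPM, so that cold and RT did not overlap on either diet. Its fall was −0.95 on NCD (SE 0.12, adjusted p = 0.00122) and −0.74 on HFD (SE 0.12, adjusted p = 0.00322), and both passed in all 12 fits that each left out 1 library. L1cam, an adhesion molecule of these cells and the next most abundant of the list, averaged 5.21 CPM over the libraries and was not called. The median log2 fold change of the 7 tested genes was −0.52 in the cold on NCD and −0.70 on HFD, against −0.01 and −0.04 over all genes. For HFD it was −0.34 at RT and −0.13 in the cold, against 0.03 and 0.02.

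Of 23 genes of myelin and Schwann identity 17 were tested. In the cold on NCD 0 of the 17 were called by edgeR, beside 6.27% of all genes, and 0 by DESeq2. An unadjusted p under 0.05 was reached by 3 of the 17, beside 3670 of all 16737 tested genes. The median log2 fold change of the 17 there was −0.34, and 3 of the 17 were above 0. In the cold on HFD 1 of the 17 was called higher, where 5.39% of all genes were. It was Mal, a proteolipid of myelin and other membranes. Mal went from 2.71, 2.77 and 3.53 CPM to 26.1, 8.54 and 29.8 CPM (log2 fold change 2.83, SE 0.39, adjusted p = 0.00151), and this call held in all 12 fits without 1 library. In both NCD groups Mal stayed at 1.86 to 2.85 CPM. Cnp, an enzyme of myelinating cells and the second most abundant of the list, averaged 7.44 CPM and was not called in any contrast.

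Gldn, gliomedin, which Schwann cells lay down at nodes of Ranvier, was the most abundant gene of that list. It measured 35.3, 34.6 and 38.5 CPM in NCD RT, 20.2, 14.0 and 29.7 CPM in NCD cold, 89.1, 91.9 and 55.0 CPM in HFD RT and 26.9, 62.7 and 33.7 CPM in HFD cold. Averaged over temperatures HFD raised it (log2 fold change 1.03, SE 0.23, adjusted p = 0.0162), and averaged over diets cold lowered it by 0.85 (log2 fold change −0.85, SE 0.23, adjusted p = 0.0244). The rise passed in all 12 fits that each left out 1 library and the fall in 6 of them. Plekhb1 also fell in the averaged cold contrast, by 0.87 on the log2 scale (adjusted p = 0.0266, in 6 of 12 such fits). Mal rose with HFD in the cold by 3.06 (SE 0.39, adjusted p = 0.00233). For HFD at RT 0 of the 17 were called by edgeR, beside 2.09% of all genes, and 1 by DESeq2 (Gldn). An unadjusted p under 0.05 was reached by 1 of the 17, beside 3033 of all 16737 tested genes. The median of the 17 was 0.06 against 0.03 over all genes.

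**Figure D4:**
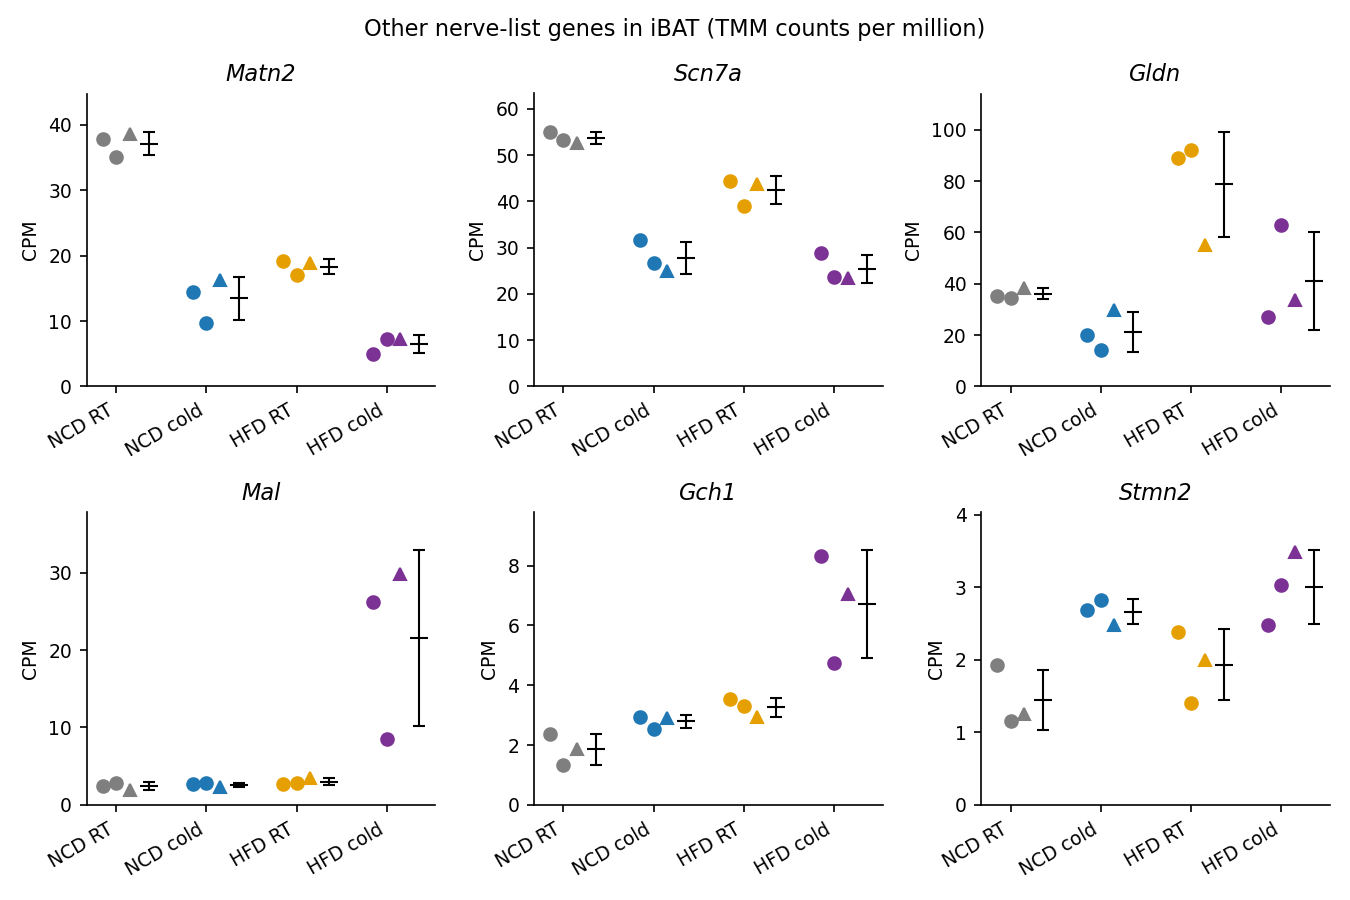
CPM of 6 further genes of the Schwann cell and sympathetic lists in the 12 libraries by group, with circles for batch 1, triangles for batch 2, and mean and SD of 3 libraries as black bars. Matn2 and Scn7a are lower in the cold on both diets, Gldn is highest in HFD RT, and Mal and Gch1 are highest in HFD cold.

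Most sympathetic neuron genes were as scarce as Th and Npy. Of 27 genes in the list, 6 were tested and the other 21 had fewer than 100 counts in all libraries together. The transcription factors Hand2 and Isl1 had 0 counts in every library. Dbh, which makes noradrenaline from dopamine, had 1 count, Slc6a2, the noradrenaline transporter, 45 counts, and Slc18a2, the vesicular monoamine transporter, 50 counts over all 12 libraries. Cyb561, an electron carrier of catecholamine vesicles, was the most abundant at a mean of 4.79 CPM, followed by Gch1, which makes the cofactor of tyrosine hydroxylase, at 3.65 CPM and the receptor Ret at 2.81 CPM. The markers of adrenal medulla were also scarce. Pnmt, which makes adrenaline, had 43 counts in all, and of 5 such markers 1 was tested, Slc18a1, the vesicular monoamine transporter of chromaffin cells, at 146 counts in all. Slc18a1 measured 0.322, 0.261 and 0.113 CPM in HFD RT and 1.44, 0.704 and 0.676 CPM in HFD cold, so that the groups did not overlap, and it rose there (log2 fold change 2.08, SE 0.53, adjusted p = 0.0293).

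Of the 6 tested sympathetic genes 0 were called in the cold on NCD by edgeR, beside 6.27% of all genes, and 1 by DESeq2 (Stmn2). An unadjusted p under 0.05 was reached by 2 of the 6, beside 3670 of all 16737 tested genes. On HFD, set against the same 5.39%, Gch1 and Cyb561 rose. Gch1 went from 3.54, 3.29 and 2.94 CPM to 8.33, 4.76 and 7.04 CPM (log2 fold change 1.05, SE 0.25, adjusted p = 0.0207). Cyb561 rose by 1.06 (SE 0.27, adjusted p = 0.0289), and both calls held in 8 of the 12 fits without 1 library. Gch1 was also higher with HFD in the cold, by 1.26 (SE 0.25, adjusted p = 0.0173, also 8 of 12 such fits). Stmn2, a microtubule regulator of neurons, rose in the averaged cold contrast by 0.77 (SE 0.19, adjusted p = 0.0148), with all 6 cold libraries at 2.48 to 3.50 CPM above all 6 RT libraries at 1.16 to 2.38 CPM. The summed level of 7 macrophage markers was 126 to 155 CPM in NCD RT, 94.2 to 128 in NCD cold, 126 to 179 in HFD RT and 122 to 271 in HFD cold, with none at 0. Of these Cd68 rose in the cold on HFD, and Mrc1 and Itgam rose with HFD in the cold. The part of these markers in the Gch1 and Mal values, and that of Slc18a1 in the Gch1 and Cyb561 values, was not tested. The median log2 fold change of the 6 tested sympathetic genes was 0.14 in the cold on NCD and 0.84 on HFD, and 0.01 for HFD at RT and 0.63 for HFD in the cold.

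**Figure D5:**
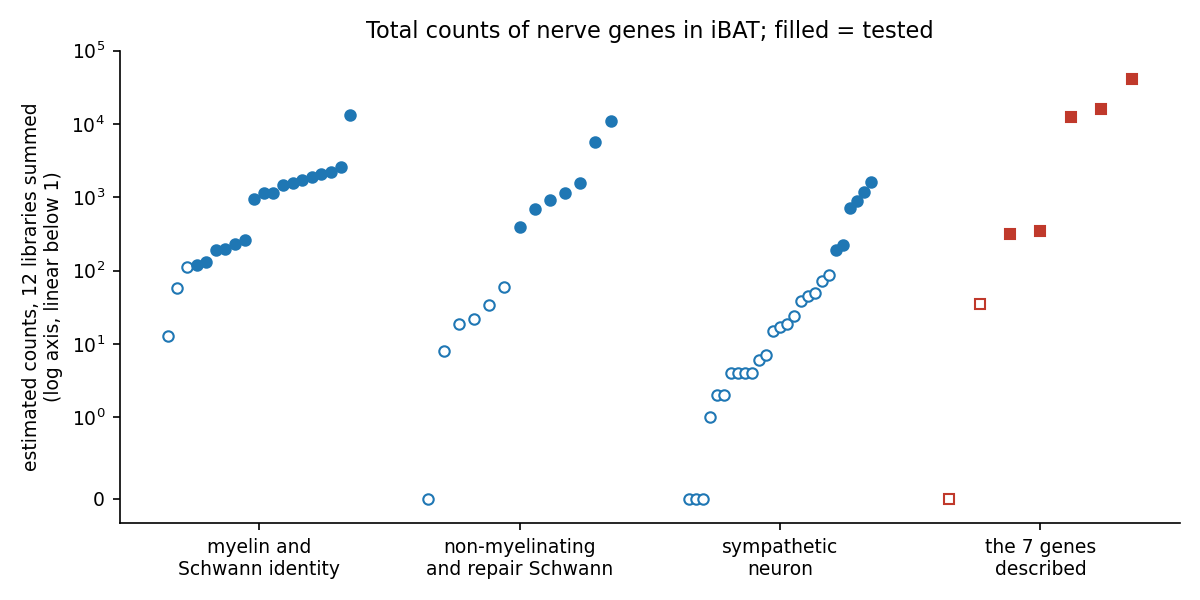
Estimated counts summed over the 12 libraries (log axis, linear below 1) for the genes of 3 nerve lists (circles) and for the 7 genes described (squares), each column sorted by count. Filled symbols passed the filter on low counts, which 6 of 27 sympathetic neuron genes did, and the lowest red square is Npy at 0.

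The signals that pass between adipocytes, nerve and glia were measured at higher levels. Of 21 neurotrophic genes 18 were tested. Sort1, a sorting receptor that binds proneurotrophins, averaged 323 CPM and was not called. Clstn3, whose locus also encodes a protein that promotes S100b release from thermogenic adipocytes, averaged 268 CPM and rose in the cold by 0.90 on NCD (SE 0.14, adjusted p = 0.00456) and by 0.75 on HFD (SE 0.14, adjusted p = 0.00747). S100b itself was not called in the cold on either diet. Bmp8b, a factor secreted by brown adipocytes, rose in the cold by 2.36 on NCD (adjusted p = 0.0079) and by 3.23 on HFD (adjusted p = 0.00111), and it was 1.75 higher with HFD in the cold (adjusted p = 0.0279, held in 7 of 12 fits without 1 library).

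Ntrk3, the receptor of neurotrophin-3, went from 512, 400.0 and 379 CPM in NCD RT to 209.9, 78.9 and 94.7 CPM in NCD cold and from 511, 312 and 324 CPM in HFD RT to 28.2, 70.6 and 22.5 CPM in HFD cold. Its fall was −1.75 on NCD (SE 0.45, adjusted p = 0.0404, held in 6 of 12 fits without 1 library) and −3.24 on HFD (SE 0.48, adjusted p = 0.00229). Sorcs2, a co-receptor of Ngfr for proneurotrophins, fell by 1.71 on NCD (log2 fold change −1.71, adjusted p = 0.0196, 7 of 12 such fits) and to 3.51, 3.48 and 2.89 CPM in HFD cold from 57.3, 21.8 and 39.9 CPM in HFD RT (−3.60, adjusted p = 0.000787). With HFD in the cold it was at −3.37 (adjusted p = 0.00198). Ntn1, the guidance cue netrin, fell in the cold on HFD by 1.05 (adjusted p = 0.0265, 8 of 12 such fits). Gfra1, a receptor of the glial-derived neurotrophic factor, was 2.45 higher on the log2 scale with HFD in the cold (adjusted p = 0.0179, 10 of 12 such fits, lost without NCD cold 1 or 3). HFD cold 1 held 15.04 CPM of Gfra1 and the other 2 libraries of that group 4.53 and 4.54 CPM, against 1.07 to 2.18 CPM in NCD cold. Without HFD cold 1 the rise of Gfra1 was 1.66 and still passed. Gfra2 and Adam22 fell in the averaged cold contrast by 0.51 and 0.65 on the log2 scale, and the Gfra2 call was lost in every one of the 12 fits without 1 library. For HFD at RT 0 of the 18 were called by edgeR, beside 2.09% of all genes, and 1 by DESeq2 (Sorcs2). An unadjusted p under 0.05 was reached by 4 of the 18, beside 3033 of all 16737 tested genes.

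Of 9 genes of NPY reception and transmitter clearance 6 were tested. Slc22a3, the extraneuronal monoamine transporter, fell in the cold by 1.03 on NCD (adjusted p = 0.0386, 4 of 12 fits without 1 library) and by 1.05 on HFD (adjusted p = 0.0269, 8 of 12). Maoa, a monoamine oxidase, rose in the cold on HFD by 0.99 (adjusted p = 0.0442, 2 of 12) and with HFD in the cold by 1.37 (adjusted p = 0.0228, 7 of 12). Maob, the other monoamine oxidase, averaged 68.8 CPM and was not called in any contrast.

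The genes most like each nerve gene over the 12 libraries were found by Pearson's r of log2 CPM among 16736 tested genes, as a description of libraries that share groups. For Ngfr they were Map3k1 (0.966), Tlr5 (0.958) and Dram1 (0.956), and without the 2 libraries farthest from the median of Ngfr these were 0.944, 0.938 and 0.937. For S100b they were Pon1 (0.932), Map1lc3a (0.931) and Ighm (0.921), which became 0.867, 0.860 and 0.839. Sox10 lay nearest to a noncoding gene without a symbol (QNCMUSG00059093, 0.923), Sema3b (0.900) and Alcam (0.885). The nearest to Mbp were Ube3a (0.872), Slc26a2 (0.837) and Zscan25 (0.797), and to Pmp22 Atxn10 (0.921), Rpl31 (0.889) and Dhps (0.875), where Rpl31 fell to 0.643 without the 2 farthest libraries. Among the nerve genes themselves r ranged from −0.68 for S100b with Sox10 to 0.61 for Sox10 with Ngfr, and none of the 4 other Schwann cell genes correlated positively with S100b.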

How the data were processed

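Total RNA-seq of iBAT was available as 1 table of 12 libraries, 4 groups of 3, grouped by the sample labels. The authors used cutadapt on the reads and salmon, with GENCODE M22 and RNAcentral 5 as the reference, and added up the transcripts of each gene. They deposited estimated counts, rounded to whole numbers, not normalized and not pooled, and whether strand was used is not given in the sources used here. Coordinates and lengths came from GENCODE M21 on GRCm38, and promoters from RefSeq on GRCm38.p6. Promoters of 5 of the 7 genes were searched. Sox10 had no entry, and the promoter of Mbp on chr18 is not reported here.

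Genes were kept with filterByExpr (minimum count 10), which left 16737 of 61210, and scaled with TMM in edgeR 4.0.16 (R 4.3.3). The quasi-likelihood fit took 4 group means and all 12 libraries, and p-values were Benjamini-Hochberg adjusted over all genes tested. Intervals are 95%. Single genes were also tested by exact two-sided permutation of log2 CPM (prior count 2) within diet or temperature. The steps were tested on simulated data. A count of 0 allows 3 counts, for counting error only.

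The 7 genes, the lists and the tests were chosen with earlier results of these data known. Named were the 7 genes in every comparison, from each nerve list the genes called (up to the 5 with the largest change per contrast) and the 3 with the highest mean, and the 3 most correlated genes of each tested member. Of the myelin and repair cell lists, 4 genes were not analysed here. Values of some listed genes that this rule names are not reported here, and they remain in the counts and medians of their lists. Alternatives were DESeq2 1.42.0, other scalings, other filters, batch, replicate number as a block, only the libraries compared, no minimum fold change, a muscle score, and each library left out. The fit without the library highest in muscle per group was added after seeing the data. Same-numbered RT and cold libraries deviated together from their group means. Their r was 0.219, 0.456 and 0.281 on NCD and 0.155, 0.217 and 0.386 on HFD. The best r with another number was 0.0439, −0.228 and 0.0301 on NCD and 0.134, 0.106 and −0.197 on HFD. The largest r on each diet belonged to the replicate highest in muscle, and the part of muscle was not tested. The block within diet was fitted as if paired. As the pairing was read from these same libraries, a pass with this block alone is not separate evidence. Where this pairing comes from is not stated, and it rests on these correlations and the shared batch of replicate 3.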

Additional observations from a re-analysis of the deposited data

How the results depend on the processing

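The averaged fall of Ngfr in the cold and the averaged rise of S100b with HFD kept their direction and passed in every edgeR and DESeq2 fit run, while their permutation tests had an adjusted p of 0.06. The fall of Ngfr in the cold on NCD ranged from -2.06 to -1.63 with 1 library left out, and it did not pass in batch 1 alone (-1.95, adjusted p = 0.101) or without the library highest in muscle per group (-1.75). The rise of S100b with HFD at RT ranged from 1.38 to 1.65 with 1 library left out and did not pass in batch 1 alone (1.60) or without the library highest in muscle (1.60), fits that hold fewer samples. In the cold on NCD 2 of the 5 genes were called by DESeq2, with batch as a term, with the replicate block and with the replicate block within diet, each adding Pmp22, 0 without the library highest in muscle, and 0 to 1 with 1 library left out. In the cold on HFD 1 was called with the replicate block (Ngfr), 2 with the block within diet and 2 with the muscle score (S100b -0.78, Ngfr -1.52), and 0 to 1 with 1 library left out (S100b without HFD cold 2, -0.88, adjusted p = 0.0419). HFD at RT called 2 by DESeq2, without a filter, with batch as a term and with the replicate block (each adding Pmp22, -0.75 to -0.71), 0 in batch 1 alone and without the library highest in muscle, and 0 to 1 with 1 library left out. HFD in the cold called 1 with library totals (S100b). The 4-group test passed for 2 by DESeq2 and for 1 without a filter. The causes of these shifts were not tested. Replicate numbers did not pair NCD with HFD libraries throughout (r from -0.211 to 0.365). Replicate 1 at RT reached 0.365, against 0.121 for the best other number. The block changed no other call of the 5 genes. With the median transcript length Sox10 was at 0.619, Mbp at 29.2, Pmp22 at 58.2 and Th at 0.102 CPM per kb.

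Over all genes, calls in batch 1 alone fell from 1049 to 352 (cold on NCD), 1603 to 416 (cold on HFD), 349 to 42 (HFD at RT), 795 to 53 (HFD in the cold), 1305 to 539 (averaged HFD) and 427 to 0 (4 groups). Without the library highest in muscle they were 281, 731, 72, 384 and, for 4 groups, 11. DESeq2 called 826 (HFD at RT), 1314 (HFD in the cold) and 2503 (4 groups), and library totals 791, 2443 and 2959 (HFD at RT, in the cold and averaged). Only the 6 libraries compared gave 855 (cold on HFD) and 149 (HFD in the cold), and the 4-group test gave 1082 without a filter and 270 with the replicate block. No minimum fold change gave 3539 and 2262 for averaged cold and HFD. With 1 library left out the lowest counts were 490, 1013, 117, 239 and 106 in the single contrasts and the 4-group test. The interaction gave 0 to 61 calls.

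Counts of Ngfr and Sox10 were low, and those of Th and Npy too low to test.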
